A study of Homo sapiens with 9 samples.

Results

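Translation initiation and elongation factors are the proteins that place a ribosome on the start codon of an mRNA and then carry it along the coding sequence. Here they are the genes whose symbol starts with EIF or EEF, after removal of the 4E binding proteins, the Y-linked copy, the pseudogene copies and the antisense genes. The deposited table lists 60683 genes, of which 218 had such a symbol and 71 remained, since 141 pseudogenes, 3 binding proteins, 2 antisense genes and 1 Y-linked copy were dropped. The rule used names only and no measured value. The cells were Hep3B, an established human liver cancer line, cultured for 24 hours with vehicle (DMSO) at 20% O2, with vehicle at 1% O2 or with 32-134D at 1% O2. 32-134D is a small molecule that the study developed as an inhibitor of the hypoxia-inducible factors (HIFs), the transcription factors that act when O2 is low. Each group had 3 libraries, described as biological replicates. The labels state no dose of 32-134D, and no library of 32-134D at 20% O2 was used here, so the compound can be read only at low O2.

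Translation begins when the initiator tRNA, carried by the GTP-binding factor eIF2, joins the small ribosomal subunit together with eIF1, eIF1A, eIF3 and eIF5. The eIF4 factors bind the cap of the mRNA and open its leader, the complex scans to the start codon, and eEF1A and eEF2 then drive each elongation step. Cells slow this machinery under stress at 2 well-known points, phosphorylation of the alpha subunit of eIF2 and control of the cap-binding factor eIF4E, while the kinase eEF2K slows elongation. Messenger RNAs of many of these factors start with a C followed by a run of pyrimidines, the 5′ TOP sequence, through which the growth-regulating kinase mTOR controls how well they are translated.

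The 9 libraries held 6013980 to 40549699 counts, and the smallest was replicate 2 of vehicle at 20% O2. Replicate 3 of 32-134D stood apart from its group, since a chi-square of its counts, divided by the degrees of freedom, was 36.4 and 32.5 against the other 2 libraries and 1.62 to 12 for all other pairs within groups. Levels are given in CPM (counts relative to library size, scaled with the TMM method). Summed levels of 8 liver markers were 17980 to 19370 CPM in vehicle at 20% O2, 13060 to 16400 in vehicle at 1% O2 and 11360 to 17740 with 32-134D. Single markers varied more across the 9 libraries, with ALB at 5947 to 10210, APOB at 377 to 5255 and FGB at 6.86 to 50.95. The sum of 3 leukocyte markers stayed below 1 in all 9, with CD3E at 0, and that of 3 endothelial markers was at most 1.28, with VWF at 0. The sum of 3 fibroblast markers was 8.67 to 9.39 CPM in vehicle at 20% O2, 6.57 to 8.06 in vehicle at 1% O2 and 11 to 23.3 with 32-134D, with DCN at or near 0, and its part in the results was not tested. In RNA from whole cultures, fewer cells of a kind and less RNA per cell cannot be told apart, and all values are relative to the other RNA of the library. The analysis was made on counts per gene with edgeR's quasi-likelihood test. A gene was called higher or lower with a Benjamini-Hochberg FDR below 0.05 over all 22672 genes tested and a fold change above 1.5.

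More initiation and elongation factors rose than fell at 1% O2, with EIF1, EIF4A2, EIF2S2 and EIF2AK3 among the largest rises and EIF4G1, EIF4G3, EEF2K and EEF2KMT among the genes that fell. With 32-134D at 1% O2, more were called lower than higher. Of the 71 genes, 67 passed the filter on low counts. In vehicle at 1% O2, 25 of the 67 were called higher than in vehicle at 20% O2, where 19.5% of all genes were. Only 5 were called lower, against 20.3% of all genes. With 32-134D, 15 were called lower than in vehicle at 1% O2, against 13.7% of all genes, and 4 were called higher, against 16.2%. Both comparisons contain the libraries of vehicle at 1% O2, so a value that is high in those libraries by error enters them with opposite signs. In 32-134D against vehicle at 20% O2, 3 members were called higher and 0 lower, where 3.0% and 0.516% of all genes were. At FDR alone, with no fold change threshold, 40 members were higher and 10 lower at 1% O2 (all genes 27.9% and 25.6%). Likewise 6 were higher and 36 lower with 32-134D against vehicle at 1% O2 (all genes 21.9% and 25.5%), and 17 were higher and 0 lower against vehicle at 20% O2 (all genes 7.81% and 2.44%). With both thresholds DESeq2 called 24 higher and 6 lower at 1% O2 (all genes 17.0% and 19.6%), and the lower gene that edgeR did not call was EIF3J-DT. It called 4 higher and 12 lower with 32-134D against vehicle at 1% O2 (all genes 15.8% and 10.6%), and 3 higher and 0 lower against vehicle at 20% O2 (all genes 3.09% and 0.640%). In that last comparison, at an unadjusted p under 0.05, 27 members were higher and 2 lower with edgeR, and 28 higher and 1 lower with DESeq2. The share of all genes at that unadjusted threshold was not computed, so these counts are not read further.

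The median log2 fold change of the 67 members was 0.34 at 1% O2, against 0.00 for all genes, and -0.24 with 32-134D at 1% O2, against -0.01. The size of these medians depends on how the libraries are scaled. When total counts replaced TMM, the median of all genes shifted to -0.21 and 0.17 and that of the members to 0.13 and -0.05, so the distance of the members from all genes was 0.34 on either scale at 1% O2 and -0.23 or -0.22 with the compound. The calls then split as 20 higher and 8 lower at 1% O2, or 71.4% higher against 83.3% with TMM, while of the calls among all genes 34.5% were higher against 49.0% with TMM. With 32-134D against vehicle at 1% O2 they split as 4 higher and 7 lower, or 36.4% higher against 21.1%, while of the calls among all genes 72.0% were higher against 54.2%. The 5 rises lost at 1% O2 under total counts were those of EIF2B4, EIF3F, EIF3H, EIF4B and EIF5, and the 3 genes that then counted as lower were EIF3J-DT, EIF4A1 and EIF5AL1. With the compound, the 8 lost calls were those of EEF1AKMT3, EIF1AD, EIF1B, EIF2B2, EIF3D, EIF3E, EIF3M and EIF4A3.

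**Figure D1:**
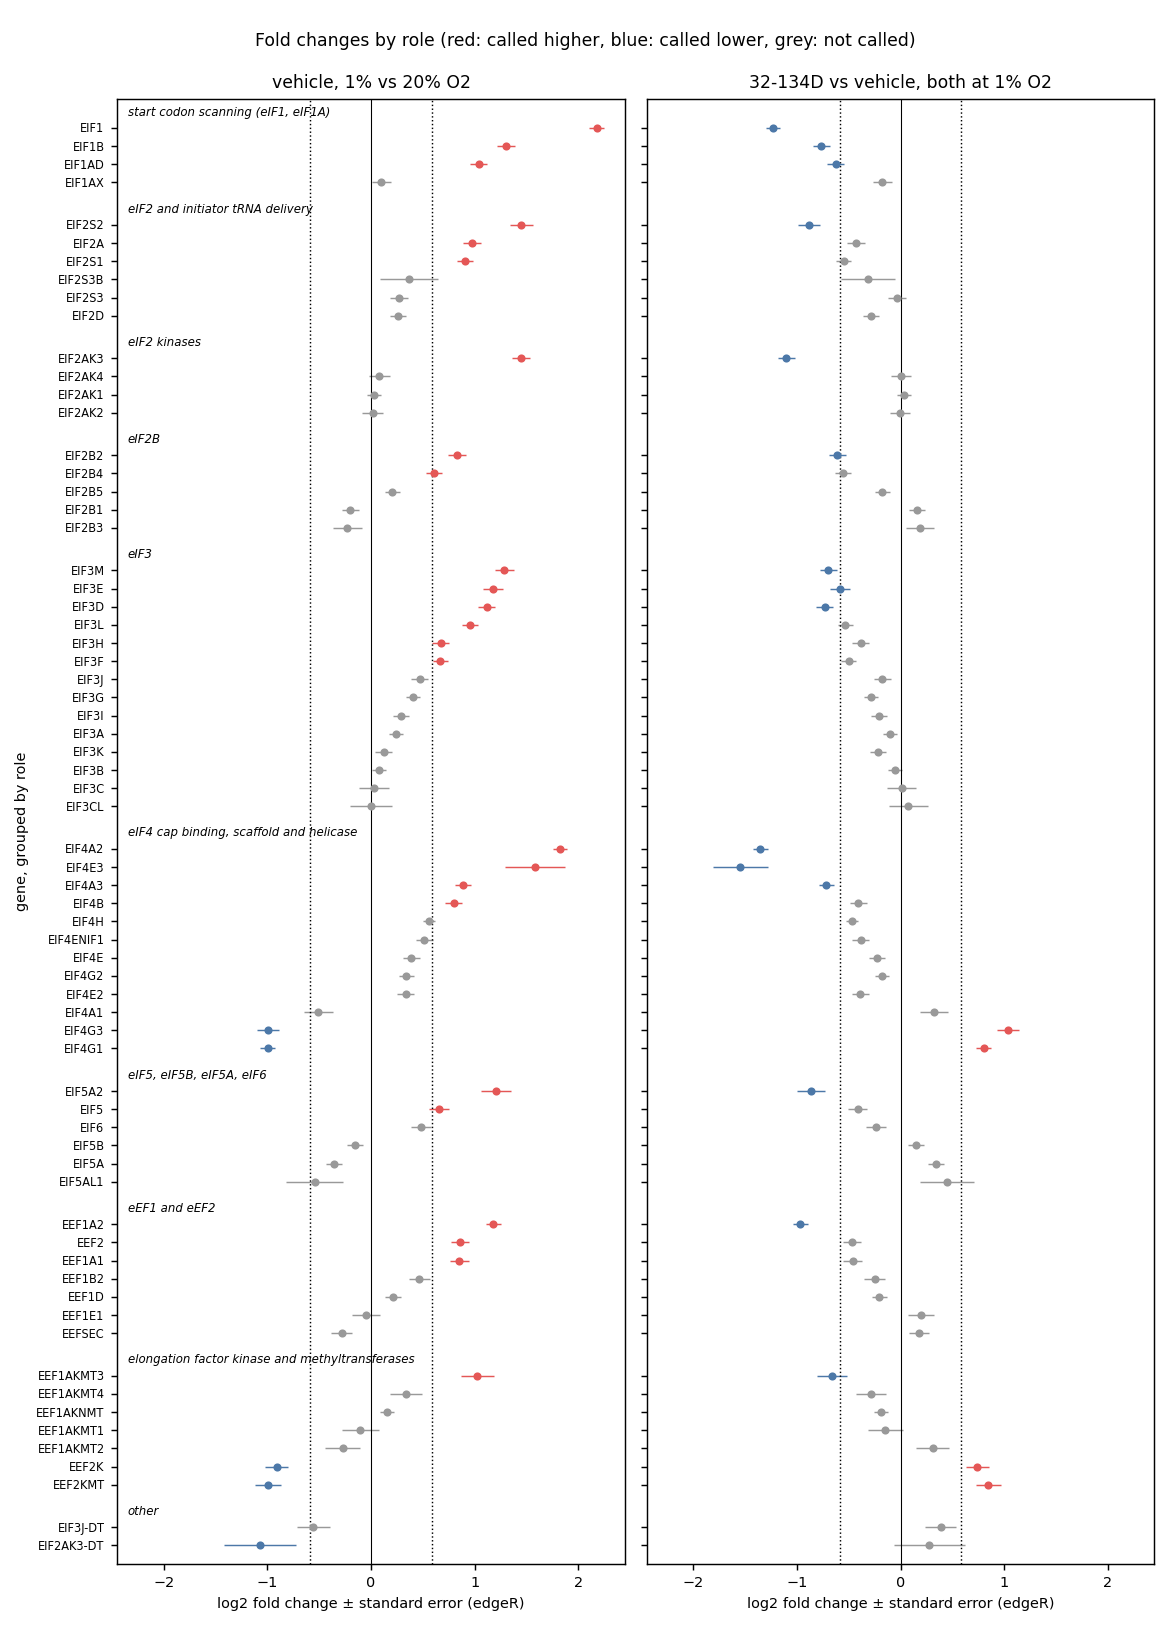
Log2 fold change (x axis, ± standard error from the edgeR fit) of the 67 tested initiation and elongation factor genes (y axis, grouped by role) for vehicle at 1% against 20% O2 (left) and for 32-134D against vehicle at 1% O2 (right), with dotted lines at a 1.5-fold change. Red points are called higher and blue points lower: 25 and 5 on the left, 4 and 15 on the right.

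Counted in raw reads, the members took 1.81%, 1.75% and 1.74% of the library in vehicle at 20% O2, 2.40%, 2.44% and 2.46% in vehicle at 1% O2, and 1.99%, 1.98% and 2.28% with 32-134D. The groups did not overlap, and the high value with 32-134D was replicate 3, the library that stood apart. A 2-sided exact permutation test of 3 libraries against 3 gave p = 0.1 for each pair of groups, the smallest p it allows. EEF1A1 and EEF2, the most abundant members, made up 41.3% ± 0.627 (SD, n = 3), 46.8% ± 0.788 and 44.9% ± 1.82 of the members' counts in these 3 groups. The remaining members together still took 1.04% ± 0.0314 of the library at 20% O2, 1.30% ± 0.00511 at 1% O2 and 1.15% ± 0.0537 with 32-134D.

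**Figure D2:**
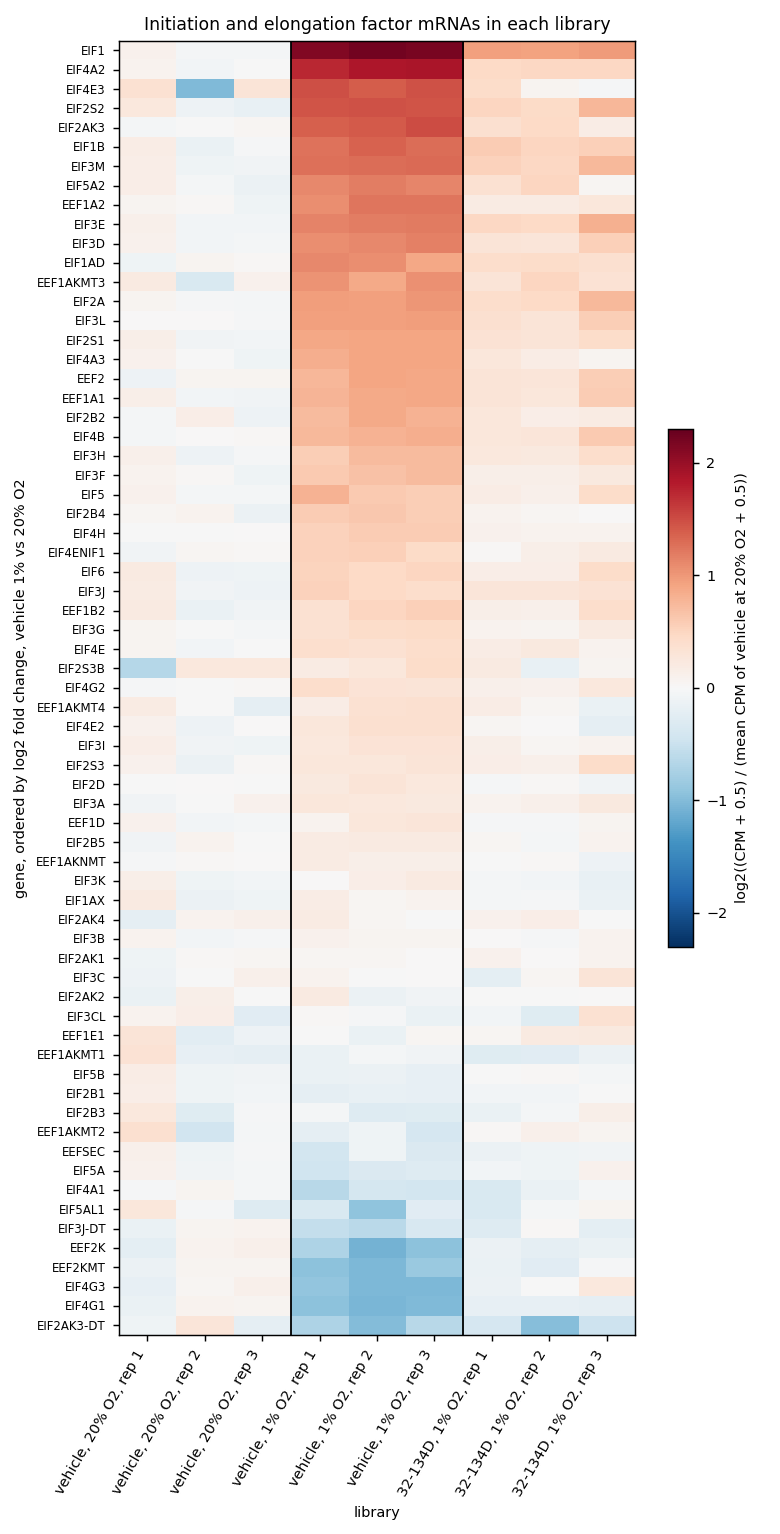
Level of the 67 tested genes (rows, ordered by the fold change at 1% O2) in each of the 9 libraries (columns), as log2 of the CPM plus 0.5 over the mean CPM of vehicle at 20% O2 plus 0.5 (colour, red higher and blue lower). The 3 libraries of vehicle at 1% O2 hold the strongest colours, from EIF1 at the top to EIF2AK3-DT at the bottom, and the libraries with 32-134D lie closer to 0.

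The first bases of the members' transcripts were read from the RefSeq table of promoter windows on GRCh38.p14 (250 bases before to 50 after the start), which held 57 of the 71 symbols. A start with C followed by at least 4 bases that are C or T was found in 13 of the 57 (22.8%) and in 5.14% of all 27305 genes with a window. This match is a description of the annotated start, not evidence that the transcripts of these cells start there. The 8 members below were called higher at 1% O2 and have such a start, and each is shown for its first 20 bases on the strand of the gene, with the leading pyrimidine run in capitals.
EIF4A2 (chr3:186783577-186783596, plus strand): CTTTTCagtcgggcgctgag
EIF3M (chr11:32583831-32583850, plus strand): CTTTTCCggtcggcgtggtc
EIF3D (chr22:36529147-36529166, minus strand): CTCTTTTCCTggtttctcaa
EIF2A (chr3:150546787-150546806, plus strand): CTCTTTCCgggacaacatgg
EEF2 (chr19:3985444-3985463, minus strand): CTCTTCCgccgtcgtcgccg
EEF1A1 (chr6:73521013-73521032, minus strand): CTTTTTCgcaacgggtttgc
EIF4B (chr12:53006456-53006475, plus strand): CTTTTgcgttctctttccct
EIF3F (chr11:7987337-7987356, plus strand): CTTCTTTCTCgacaagatgg

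Among the 19 members with a window that were called higher at 1% O2, 8 had this start, and among the 4 called lower 0 had it. The 13 genes with the start had a median log2 fold change of 0.80 at 1% O2, from 0.12 to 1.82, and 8 were called higher and 0 lower. The 40 tested genes with another start had a median of 0.25, from -1.07 to 2.18, with 11 called higher and 4 lower. Among all genes 19.5% were called higher and 20.3% lower. With 32-134D at 1% O2 the medians were -0.43 and -0.18, and 3 of the 13 and 8 of the 40 were called lower (all genes 13.7%). Of the remaining 5 genes with the start, EEF1B2, EIF2S3, EIF2S3B, EIF2D and EIF3K, none was called in either comparison by edgeR's quasi-likelihood test, and their log2 fold changes at 1% O2 ran from 0.12 to 0.47. A list of 13 factors whose mRNAs are known as TOP mRNAs shares genes with the 13 that have the start, among them EIF2S3 and EIF4B. The list is therefore not independent of that group. Of the list, 12 were tested, and 8 of them rose at 1% O2 and 0 fell, with a median of 0.73. With 32-134D at 1% O2, 2 were called lower and the median was -0.43.

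**Figure D3:**
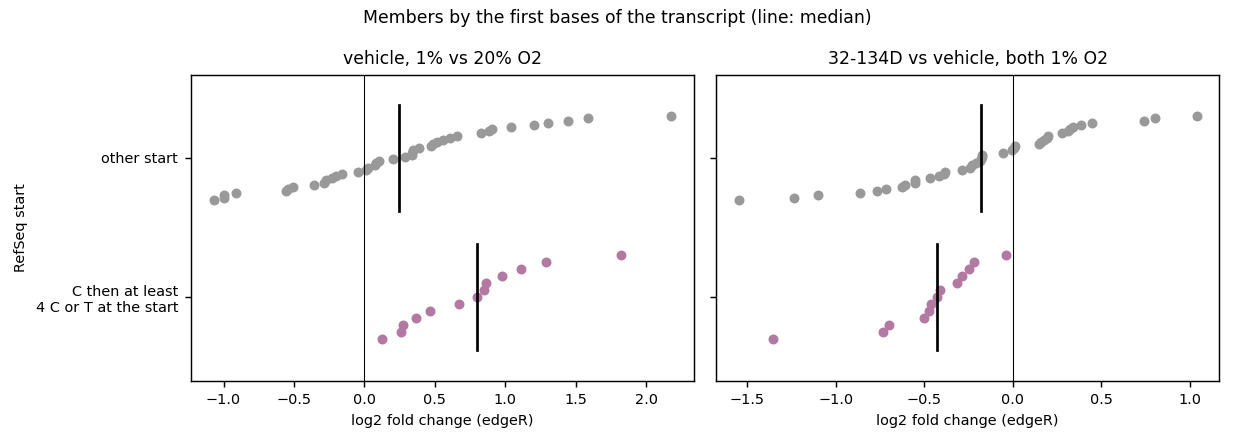
Log2 fold change (x axis, edgeR) of the 53 tested members with a RefSeq window, split by the first bases of the transcript (y axis) for vehicle at 1% against 20% O2 (left) and 32-134D against vehicle at 1% O2 (right), with one point per gene and a line at the median. At 1% O2 the 13 genes with a C and pyrimidine start all lie above 0 and their median is 0.80, against 0.25 for the others.

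A second sequence read in these windows was ACGTG, the core of the element that HIFs bind, searched on both strands and counted also where it lies inside the palindrome CACGTG, which other factors bind. It was in the 300 bases around the start of 29 of the 57 members (50.9%) and of 24.9% of all genes with a window. It was in 10 of the 19 members called higher at 1% O2, in 3 of the 4 called lower and in 14 of the 30 that were not called. EIF1 is shown as the member with the largest rise, EIF1B as its copy and EEF2K as a member that fell, each with 15 bases on either side of the match on the plus strand and the match in capitals.
EIF1 (chr17:41688805-41688839, plus strand): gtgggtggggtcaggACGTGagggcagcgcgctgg
EIF1B (chr3:40309638-40309673, plus strand): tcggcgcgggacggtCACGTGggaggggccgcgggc
EEF2K (chr16:22206204-22206239, plus strand): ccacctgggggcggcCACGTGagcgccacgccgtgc
The matches lie 65, 54 and 59 bases before the RefSeq start of the 3 genes, all upstream of the transcript. The element was thus found beside members that rose and beside members that fell, and the counts do not say whether a factor bound there.

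Among all members, the largest rise was that of EIF1, a factor of start codon scanning. EIF1 (chr17:41688885-41692668 in GENCODE version 29 on GRCh38), which keeps the scanning ribosome from starting at a wrong codon, was at 301, 273 and 272 CPM in vehicle at 20% O2, at 1229.9, 1315 and 1281 in vehicle at 1% O2, and at 542, 534 and 553 with 32-134D. All 3 libraries of vehicle at 1% O2 were far above the others, those with 32-134D lay between, and the groups did not overlap. The log2 fold change was 2.18 ± 0.07 (SE, FDR = 9.53e-12) at 1% O2, -1.23 ± 0.07 (FDR = 5.49e-09) with 32-134D against vehicle at 1% O2 and 0.95 ± 0.07 (FDR = 6.28e-07) against vehicle at 20% O2. Its near copy EIF1B was at 28.7, 22.9 and 24.9 CPM, then 61.5, 66.0 and 62.9, then 38.5, 36.0 and 37.4 in the same order of groups. It had the same order of groups, again with no overlap, and log2 fold changes of 1.31 ± 0.09 and -0.77 ± 0.08. EIF1AD, a relative of eIF1A, rose by 1.04 ± 0.08 and was 0.63 ± 0.08 lower with the compound on the log2 scale. EIF1AX, the X-linked gene for eIF1A itself, was not called, with 0.10 ± 0.09 and -0.18 ± 0.09. Within the eIF1 pair, EIF1B supplied 14.6% ± 0.807 (SD, n = 3) of the reads per kilobase at 20% O2, 8.62% ± 0.0922 at 1% O2 and 11.5% ± 0.295 with 32-134D.

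The 3 subunits of eIF2, the carrier of the initiator tRNA, did not move by the same amount. EIF2S2, which encodes the beta subunit, was at 196, 154 and 148 CPM at 20% O2, at 453, 457 and 454 in vehicle at 1% O2, and at 234, 226 and 281 with 32-134D. The 3 values of vehicle at 1% O2 were nearly equal and well above the rest, and replicate 3 of 32-134D was the highest of its group. The log2 fold change was 1.45 ± 0.11 (FDR = 2.89e-08) at 1% O2 and -0.88 ± 0.10 (FDR = 6.88e-06) with the compound. EIF2S1, which encodes the alpha subunit that the stress kinases phosphorylate, was at 72.8, 62.0 and 62.9 CPM, then 122, 124 and 124, then 83.2, 81.3 and 88.6. It rose at 1% O2 by 0.90 ± 0.08 (FDR = 1.35e-07), and its log2 fold change of -0.55 ± 0.07 with 32-134D passed the FDR (2.53e-05) but not the fold change threshold, which it passed without replicate 3 of 32-134D. The gamma subunit gene EIF2S3 was not called in either comparison, at 0.27 ± 0.09 and -0.04 ± 0.09. EIF2A, a factor that can bring the initiator tRNA without GTP, rose by 0.98 ± 0.09. The reinitiation factor EIF2D was not called at 0.26 ± 0.08. EIF2S3B, a copy of EIF2S3 on another chromosome with 429 counts in all, had 0.37 ± 0.28 and was not called.

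Of the 4 kinases that phosphorylate eIF2, only EIF2AK3 was called in these comparisons by edgeR. EIF2AK3 (PERK, chr2:88556741-88627576), the kinase that senses unfolded protein in the endoplasmic reticulum, was at 30.8, 31.4 and 32.8 CPM in vehicle at 20% O2, at 83.3, 85.4 and 90.6 in vehicle at 1% O2, and at 41.1, 43.7 and 35.9 with 32-134D. The groups did not overlap, and the libraries with the compound lay just above those at 20% O2. Its log2 fold change was 1.45 ± 0.09 (FDR = 3.62e-09), then -1.10 ± 0.08 (FDR = 9.68e-08) with 32-134D against vehicle at 1% O2 and 0.34 ± 0.09 (FDR = 0.0205) against vehicle at 20% O2. EIF2AK1 (HRI, which senses heme) was at 290 to 320 CPM at 20% O2, 310 to 319 in vehicle at 1% O2 and 312 to 329 with the compound. EIF2AK2 (PKR, which senses double-stranded RNA) was at 31.7 to 38.9, 32.1 to 40.5 and 34.9 to 35.4 CPM. EIF2AK4 (GCN2, which senses uncharged tRNA) was at 30.1 to 38.1, 34.7 to 40.2 and 34.8 to 39.2 CPM. The groups of all 3 overlapped, and their log2 fold changes were 0.03 ± 0.07, 0.01 ± 0.10 and 0.08 ± 0.10 at 1% O2, with FDR from 0.527 to 0.92. With 32-134D against vehicle at 1% O2 they were 0.03 ± 0.07, -0.01 ± 0.10 and 0.01 ± 0.10. Per kilobase of exon, EIF2AK3 supplied 8.62% ± 0.302 (SD, n = 3) of the reads on the 4 kinases at 20% O2, 20.1% ± 1.02 at 1% O2 and 10.3% ± 1.06 with 32-134D, while EIF2AK1 supplied 82.2%, 71.8% and 80.8%. EIF2AK3-DT, a noncoding transcript that starts beside EIF2AK3 and runs the other way, was called lower at 1% O2 at -1.07 ± 0.35 (FDR = 0.0174), but it had only 180 counts in 9 libraries and the call was lost without replicate 2 of vehicle at 1% O2. The exons of both genes overlap over 0.887% of those of EIF2AK3-DT, and the strand setting of the counting is not given in the sources used here.

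Of the 5 subunits of eIF2B, the exchange factor that recharges eIF2 with GTP and is blocked by phosphorylated eIF2, EIF2B2 rose by 0.83 ± 0.09 and EIF2B4 by 0.61 ± 0.08 at 1% O2. EIF2B4 lay just inside the threshold, and its call was lost without replicate 3 of vehicle at 20% O2, without replicate 1 of 32-134D and with DESeq2. EIF2B5, the catalytic subunit, was at 54.8, 61.2 and 57.7 CPM, then 66.1, 66.8 and 66.6, then 59.5, 55.8 and 61.2, and was not called, at 0.20 ± 0.07 (FDR = 0.0292) and -0.18 ± 0.07 (FDR = 0.0548). EIF2B1 and EIF2B3 were not called either, at -0.20 ± 0.08 and -0.23 ± 0.14. With 32-134D, EIF2B2 alone among the 5 was called lower than in vehicle at 1% O2, at -0.61 ± 0.08. That value lay just inside the threshold, and the call was lost with DESeq2, under total counts and in some fits that left out 1 library. EIF2B4, at -0.55 ± 0.08 (FDR = 3.03e-05), lay just outside it, so the calls do not separate these 2 subunits.

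The eIF3 complex, the large scaffold that binds the small ribosomal subunit, has 14 genes here. At 1% O2, 6 of them rose (all genes 19.5%), 0 fell (all genes 20.3%) and 8 were not called. EIF3M, at the top of the 14, was at 99.9, 84.3 and 85.2 CPM at 20% O2, at 217, 219 and 223 in vehicle at 1% O2, and at 129, 126 and 151 with 32-134D. The groups did not overlap, and replicate 3 was again the highest with the compound. Its log2 fold change was 1.29 ± 0.09 (FDR = 1.38e-08), then -0.70 ± 0.09 (FDR = 9.85e-06) with 32-134D at 1% O2. EIF3E, with 1.17 ± 0.09, EIF3D, a subunit that can itself bind the cap of some mRNAs, with 1.11 ± 0.08, EIF3L with 0.95 ± 0.08, EIF3H with 0.67 ± 0.08 and EIF3F with 0.67 ± 0.07 also rose, although 41.1% of the exon bases of EIF3L are shared with other genes on its strand. None of these 6 encodes a subunit of the conserved core, which EIF3A, EIF3B, EIF3C, EIF3G and EIF3I form. EIF3A, EIF3B, EIF3G and EIF3I were at 0.24 ± 0.07, 0.07 ± 0.07, 0.40 ± 0.07 and 0.29 ± 0.08 and were not called. Of these, EIF3A, EIF3G and EIF3I passed the FDR (0.00968, 0.000141 and 0.00548) with no overlap between both vehicle groups, but not the fold change threshold. The core was thus not unchanged. EIF3J and EIF3K, outside the core, were not called either, at 0.47 ± 0.08 and 0.12 ± 0.08. EIF3C and its near-identical copy EIF3CL had only 2199 and 1012 counts, at 0.03 ± 0.14 and -0.00 ± 0.21, and reads shared by both copies may have been discarded, so these values are uncertain. With 32-134D at 1% O2, 3 of the 14 were called lower (all genes 13.7%), namely EIF3M, EIF3D at -0.73 ± 0.08 and EIF3E at -0.59 ± 0.09. EIF3E lay just inside the threshold, and its call was lost in 7 of the 9 fits that left out 1 library.

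The genes of the eIF4 group bind the cap, unwind the leader or form the scaffold. Of the 12 tested, 4 rose and 2 fell at 1% O2 (all genes 19.5% and 20.3%). EIF4A2 (chr3:186783205-186789900), a helicase that unwinds the leader, was at 419, 382 and 394 CPM in vehicle at 20% O2, at 1321, 1450.1 and 1459 in vehicle at 1% O2, and at 548, 552 and 556 with 32-134D. It had no overlap between groups, and with the compound the 3 libraries lay close to each other and far below vehicle at 1% O2. The log2 fold change was 1.82 ± 0.07 (FDR = 5.16e-11), then -1.35 ± 0.07 (FDR = 2.81e-09), and 0.47 ± 0.07 (FDR = 0.00048) with 32-134D against vehicle at 20% O2. EIF4A1, the sister helicase, was at 8.39, 8.95 and 8.18 CPM, then 5.30, 6.32 and 6.26, then 6.58, 7.61 and 8.18, and was not called at -0.51 ± 0.14 (FDR = 0.00623). In GENCODE version 29, 48.6% of the exon bases of EIF4A1 are shared with other genes on its strand, so its level is uncertain and cannot be set against that of EIF4A2. EIF4A3, the helicase of the exon junction complex, rose by 0.89 ± 0.08 and was lower with 32-134D, at -0.72 ± 0.07. EIF4B, which stimulates the helicase, rose by 0.80 ± 0.09, and EIF4H, with the same task, was at 0.56 ± 0.06, just under the fold change threshold.

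Of the eIF4E paralogs EIF4E, EIF4E2 and EIF4E3, which bind the cap, only EIF4E3, the one with the fewest counts, was called. EIF4E was at 30.6, 27.9 and 28.8 CPM, then 38.3, 37.4 and 38.9, then 32.6, 33.9 and 31.0, and its log2 fold change of 0.39 ± 0.08 (FDR = 0.000769) did not pass the fold change threshold. EIF4E2, a cap-binding repressor whose product takes part in translation at low O2, was at 0.34 ± 0.08 and was not called. EIF4E3 was at 1.58, 0.314 and 1.52 CPM at 20% O2, at 4.08, 3.82 and 4.01 in vehicle at 1% O2, and at 1.70, 1.21 and 1.10 with 32-134D. Its libraries in vehicle at 1% O2 were all above the others, while the outer groups overlapped, and the 0.314 belongs to the smallest library. With 545 counts in all it rose by 1.58 ± 0.29 (FDR = 0.000264) and was lower with the compound, at -1.55 ± 0.26 (FDR = 0.00019). EIF4ENIF1, which carries eIF4E into the nucleus, was not called at 0.52 ± 0.08.

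The scaffolds EIF4G1 and EIF4G3, which bridge the cap-binding protein, the helicase and eIF3, fell at 1% O2. EIF4G1 (chr3:184314495-184335358) was at 930.3, 1090.2 and 1084 CPM in vehicle at 20% O2, at 541, 501 and 514 in vehicle at 1% O2, and at 910.3, 906 and 895 with 32-134D. All 3 libraries of vehicle at 1% O2 were far below the rest, and those with the compound lay a little below those at 20% O2. The log2 fold change was -0.997 ± 0.0746 (FDR = 3.50e-08), then 0.80 ± 0.07 (FDR = 6.53e-07) with 32-134D against vehicle at 1% O2. EIF4G3 was at 96.7, 113 and 120 CPM, then 58.4, 53.5 and 53.5, then 100.3, 109 and 131, at -0.996 ± 0.104 (FDR = 1.19e-06) and 1.04 ± 0.10 (FDR = 1.27e-06). Its libraries with 32-134D overlapped those of vehicle at 20% O2, whereas vehicle at 1% O2 was apart. EIF4G2, a relative that lacks the site for eIF4E and serves cap-independent initiation, was not called at 0.34 ± 0.07. Per kilobase of exon, EIF4G1 supplied 51.3% ± 1.72 (SD, n = 3) of the reads on the 3 scaffold genes at 20% O2, 30.7% ± 0.345 in vehicle at 1% O2 and 45.4% ± 1.74 with 32-134D. EIF4G2 supplied 44.1% ± 1.92, 66.5% ± 0.331 and 49.7% ± 1.26, and so went from below EIF4G1 at 20% O2 to above it at 1% O2. The exact permutation test gave p = 0.1, its smallest value, for each of these differences.

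**Figure D4:**
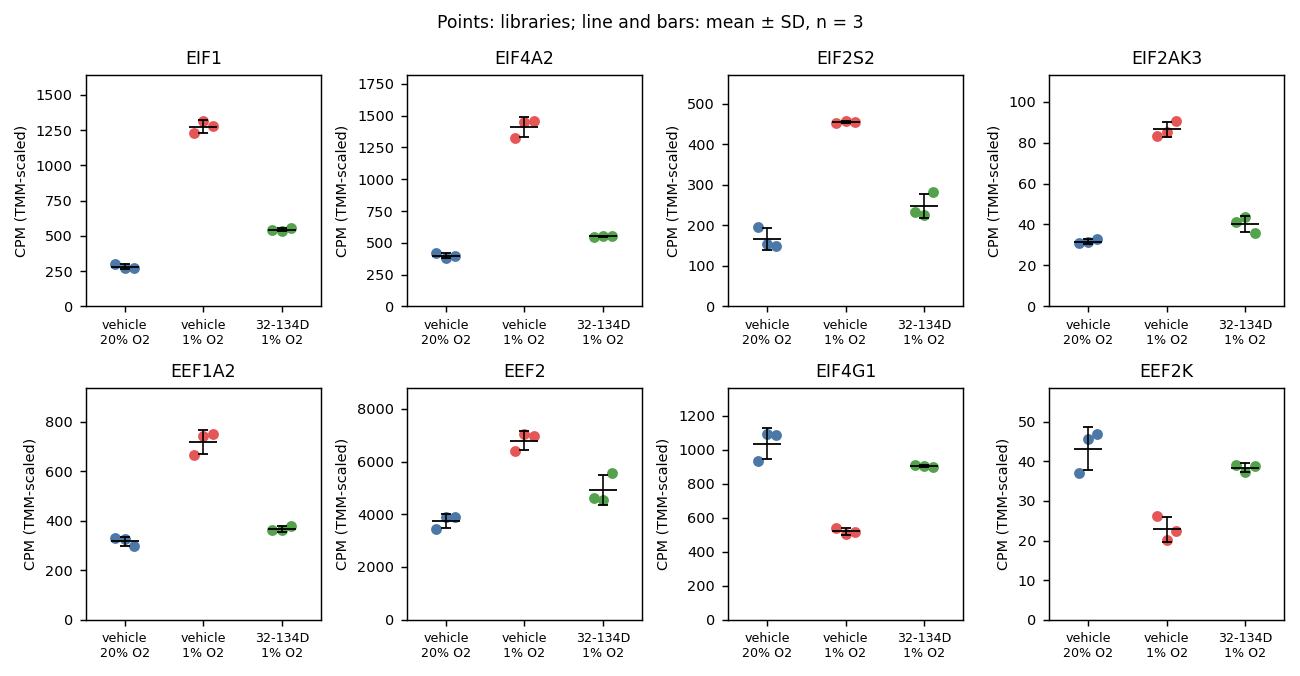
CPM (y axis, scaled with TMM, from 0) of 8 members in each library (points) with the group mean ± SD (black, n = 3) for vehicle at 20% O2, vehicle at 1% O2 and 32-134D at 1% O2 (x axis). EIF1, EIF4A2, EIF2S2, EIF2AK3, EEF1A2 and EEF2 are highest in vehicle at 1% O2, and EIF4G1 and EEF2K are lowest there.

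Among the factors that join the subunits, EIF5, which makes eIF2 hydrolyse GTP, rose by 0.66 ± 0.09, a call that was lost without replicate 1 of vehicle at 1% O2. EIF5B, the GTPase that joins the large subunit, was not called at -0.16 ± 0.08, nor was EIF6, which keeps the subunits apart, at 0.49 ± 0.10. EIF5A, the hypusine-carrying factor that helps ribosomes through difficult peptide bonds, was at 825, 730.4 and 749 CPM, then 562, 610.2 and 625, then 737, 716 and 824. It was below both other groups in all 3 libraries of vehicle at 1% O2, but its log2 fold changes of -0.36 ± 0.08 (FDR = 0.00119) and 0.34 ± 0.08 (FDR = 0.00209) did not pass the fold change threshold. Its minor copy EIF5A2 was at 6.88, 5.97 and 5.56 CPM, then 13.8, 14.4 and 14, then 7.91, 8.85 and 6.31. It rose by 1.20 ± 0.15 (FDR = 5.05e-06) and was lower with the compound, at -0.86 ± 0.13 (FDR = 8.29e-05), and the groups at 20% O2 and with 32-134D overlapped. EIF5A2 supplied 0.40% ± 0.0241 (SD, n = 3) of the reads per kilobase on the pair at 20% O2, 1.17% ± 0.0510 in vehicle at 1% O2 and 0.513% ± 0.119 with 32-134D. EIF5AL1, a copy of EIF5A with 452 counts, was not called at -0.54 ± 0.28.

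Of the 7 tested genes of eEF1 and eEF2, the 3 that encode eEF1A and eEF2 rose at 1% O2 (all genes 19.5%). Of the others, 0 fell (all genes 20.3%) and 4 were not called. Per kilobase of exon, EEF2 and EEF1A1 had the highest levels of all members in vehicle at 20% O2, at 930 and 531 CPM per kilobase. EEF2 (chr19:3976056-3985469), which moves the ribosome by 1 codon, was at 3451, 3892 and 3890.5 CPM in vehicle at 20% O2, at 6386, 7036 and 6967 in vehicle at 1% O2, and at 4599.8, 4548 and 5557 with 32-134D. The groups did not overlap, and replicate 3 of 32-134D was well above the other 2 of its group. EEF2 rose by 0.86 ± 0.09 (FDR = 1.05e-06), and its -0.47 ± 0.09 (FDR = 0.000444) with 32-134D at 1% O2 did not pass the fold change threshold. EEF1A1 (chr6:73515750-73523797), which delivers tRNAs to the ribosome, was at 3447, 3037 and 2992 CPM, then 5444, 5772 and 5883, then 3896, 3767 and 4757. It rose by 0.85 ± 0.09 (FDR = 1.77e-06), was at -0.46 ± 0.09 (FDR = 0.000743) with the compound, and again had its highest value with 32-134D in replicate 3. Reads on its 39 dropped pseudogenes were 2.91% of the sum of both. EEF1A2, the isoform of muscle and nerve that some tumours express, was at 330.1, 324 and 296 CPM, then 664, 741 and 749, then 360.4, 360.2 and 379. It rose by 1.18 ± 0.07 (FDR = 5.45e-09) and was called lower with 32-134D, at -0.97 ± 0.07 (FDR = 9.76e-08), close to its level at 20% O2. EEF1A2 supplied 10.9% ± 0.545 (SD, n = 3) of the reads per kilobase on the eEF1A pair at 20% O2, 13.2% ± 0.314 in vehicle at 1% O2 and 9.75% ± 0.833 with 32-134D, and the share with the compound lay below both other groups. The exchange factor genes EEF1B2 and EEF1D were not called, at 0.47 ± 0.10 and 0.21 ± 0.08. EEF1E1, at -0.05 ± 0.13, and EEFSEC, the GTPase for selenocysteine, at -0.28 ± 0.10 (FDR = 0.0292), were not called either. EEF1G, the anchor of the exchange complex, had 0 counts in all 9 libraries, and 99.9% of its exon bases lie within another annotated gene on its strand, so its level cannot be read from this table.

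**Figure D5:**
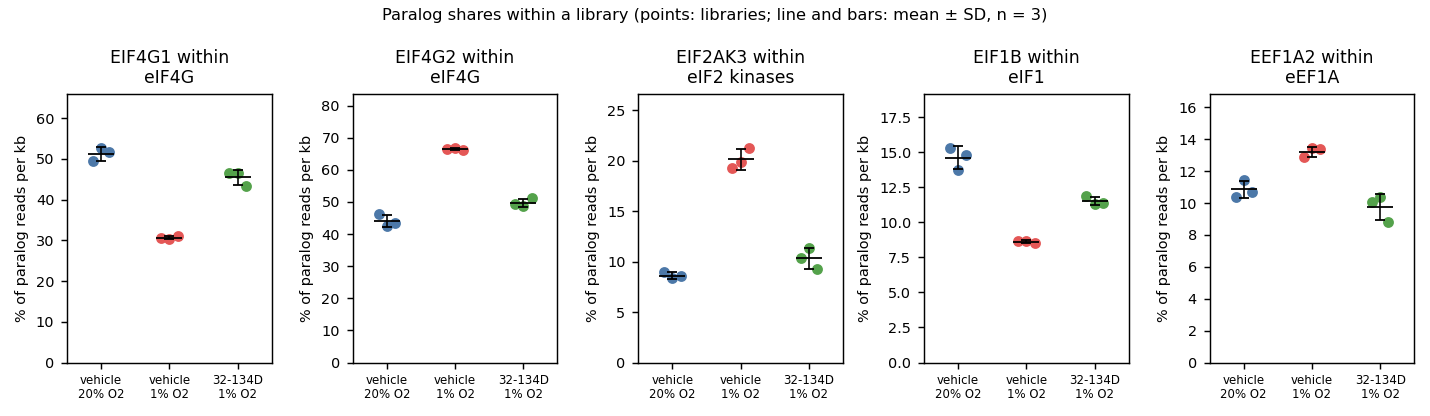
Share of the reads per kilobase of exon on a group of related genes that fell on 1 of them (y axis, percent, from 0), for each library (points) with mean ± SD (black, n = 3) in the 3 groups (x axis). EIF4G1 and EIF1B have their lowest shares in vehicle at 1% O2 and EIF4G2, EIF2AK3 and EEF1A2 their highest, for example 20.1% for EIF2AK3 against 8.62% at 20% O2.

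The kinase that inactivates eEF2 went the other way from eEF2 itself. EEF2K (chr16:22206282-22288732) was at 37.0, 45.7 and 46.9 CPM in vehicle at 20% O2, at 26.3, 20.1 and 22.3 in vehicle at 1% O2, and at 39.2, 37.2 and 38.9 with 32-134D. All libraries of vehicle at 1% O2 were below the rest, and the outer groups overlapped. The log2 fold change was -0.91 ± 0.11 (FDR = 6.22e-06), then 0.74 ± 0.11 (FDR = 5.42e-05) with 32-134D. EEF2KMT, which methylates a lysine of eEF2, was at 10.7, 12.4 and 12.3 CPM, then 5.88, 5.52 and 6.33, then 10.6, 9.80 and 11.6. It followed the same order, at -0.99 ± 0.13 (FDR = 9.12e-06) and 0.85 ± 0.12 (FDR = 4.46e-05), although 29.2% of its exon bases are overlapped by ALG1 on the other strand. Of the 5 methyltransferases of eEF1A, EEF1AKMT3 rose by 1.02 ± 0.16 and was lower with 32-134D, at -0.66 ± 0.14. The other methyltransferase genes, EEF1AKMT1, EEF1AKMT2, EEF1AKMT4 and EEF1AKNMT, were not called in either comparison, with log2 fold changes from -0.27 to 0.34 at 1% O2. EIF3J-DT, a noncoding transcript beside EIF3J, was at -0.56 ± 0.16 and not called by edgeR with TMM, but it was called lower by DESeq2, under total counts, with at least 10 counts in every library, after thinning to the smallest library and without replicate 1 of vehicle at 20% O2, replicate 3 of vehicle at 1% O2 or replicate 1 of 32-134D. The 4 members that were not tested are EEF1G, EIF4E1B with 1 count, and the readthrough genes EEF1AKMT4-ECE2 and EEF1E1-BLOC1S5 with 0 counts.

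With 32-134D at 1% O2, the members lay close to vehicle at 20% O2 but not all on it. Called higher than in vehicle at 20% O2 were EIF1, EIF3E at 0.59 ± 0.09 (FDR = 0.001) and EIF3M at 0.59 ± 0.09 (FDR = 0.000533). EIF3E and EIF3M lay just inside the fold change threshold, and both calls were lost without replicate 3 of 32-134D, without replicate 2 or without replicate 3 of vehicle at 20% O2, which left EIF1 alone. Just outside it, EIF2S2 was at 0.57 ± 0.11, EIF2A at 0.55 ± 0.09 and EIF1B at 0.54 ± 0.09. EEF1A2 at 0.21 ± 0.07 (FDR = 0.0844), EIF4G1 at -0.20 ± 0.07 (FDR = 0.115), EEF2K at -0.17 ± 0.11 (FDR = 0.384) and EIF4G3 at 0.04 ± 0.10 (FDR = 0.855) did not pass the FDR. Without replicate 3 of 32-134D, 17 members were called lower and 4 higher than in vehicle at 1% O2, and the additional 2 were EIF2S1 and EIF3L. Of all 22282 genes tested in that fit, 3144 were lower and 3711 higher.

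Around the members, 49 genes that regulate or assist translation were listed by knowledge of the pathway, and all 49 were tested. At 1% O2, 11 of the 49 rose, against 19.5% of all genes, and 3 fell, against 20.3%. With 32-134D against vehicle at 1% O2, 2 were higher, against 16.2% of all genes, and 5 lower, against 13.7%. Against vehicle at 20% O2, 2 were higher and 0 lower, where 3.0% and 0.516% of all genes were. Their median log2 fold changes were 0.26, -0.08 and 0.11 in the 3 comparisons, against 0.00 and -0.01 for all genes in the first 2. Under total counts they were 0.05, 0.10 and 0.08, so the sign with 32-134D at 1% O2 turned, where the median of all genes was 0.17, and with DESeq2 they were 0.22, -0.02 and 0.12. At FDR alone the counts were 23 and 9, 5 and 19, and 11 and 1.

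The largest rise in that list was in the subunits that direct phosphatase 1 to eIF2 and so reverse the work of the kinases. PPP1R15A (GADD34) was at 52.6, 59.5 and 49.5 CPM in vehicle at 20% O2, at 357, 400.4 and 395 in vehicle at 1% O2, and at 140.1, 141 and 147 with 32-134D. Its log2 fold changes were 2.85 ± 0.08 (FDR = 4.54e-12), -1.43 ± 0.08 (FDR = 5.11e-09) and 1.42 ± 0.08 (FDR = 9.65e-08), with no overlap between groups. PPP1R15B (CReP) had 2.05 ± 0.08, -1.15 ± 0.08 and 0.90 ± 0.08 and was also called in all 3 comparisons. The 2 genes called higher with 32-134D than in vehicle at 20% O2 are this pair.

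Among the regulators of eIF4E, EIF4EBP1, the repressor that mTOR phosphorylates, was at 116, 103 and 90.3 CPM, then 212, 225 and 209.8, then 128, 126 and 202. It rose by 1.07 ± 0.15 (FDR = 2.34e-05), and its -0.50 ± 0.15 (FDR = 0.0106) with 32-134D did not pass the fold change threshold, with replicate 3 of the compound near the level of vehicle at 1% O2. Without that library EIF4EBP1 was called lower with 32-134D, at -0.76, and without replicate 1 or 2 of 32-134D, at -0.34 and -0.38, or under total counts, at -0.32, it no longer passed the FDR. EIF4EBP2 was at 0.04 ± 0.08 and -0.01 ± 0.08 and EIF4EBP3, with under 1.10 CPM in every library, at 0.54 ± 0.41 and 0.21 ± 0.34, and neither was called. PDCD4, an inhibitor of the helicase, was at 0.51 ± 0.11 and -0.56 ± 0.11, and PABPC1, the poly(A)-binding protein, at 0.50 ± 0.07 and -0.23 ± 0.07. PAIP2, which displaces that protein, rose by 1.28 ± 0.09 and was lower with the compound, at -0.87 ± 0.08. LARP1, the protein that binds TOP mRNAs and represses them, fell by 0.69 on the log2 scale at 1% O2 (SE 0.09, FDR = 1.52e-05) and was higher with 32-134D, at 0.62 ± 0.09 (FDR = 5.55e-05).

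Of the genes of termination, rescue and recycling, PELO, which frees stalled ribosomes, rose by 1.71 ± 0.10 (FDR = 2.40e-09) and was lower with the compound, at -1.13 ± 0.09. Its partner HBS1L rose by 0.62 ± 0.07. The 2 selenocysteine genes that fell at 1% O2 were SEPHS2, which makes the selenium donor, at -0.87 ± 0.17, and SECISBP2, which binds the selenocysteine element, at -0.84 ± 0.11. SECISBP2 was called higher with 32-134D, at 0.80 ± 0.11, whereas SEPHS2 was not, at 0.34 ± 0.17, and replicate 3 of 32-134D was the lowest of all 9 libraries for SEPHS2.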

How the data were processed

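RNA from 9 Hep3B cultures was sequenced, and the authors deposited raw counts per gene, made with STAR and featureCounts on GRCh38 and Ensembl 100, without normalization. The strand and multiple mapping settings are not given in the sources used here. The 9 columns were matched to samples by name, and 0 were left unmapped. Fold changes were computed with edgeR 4.0.16 in R 4.3.3, using TMM scaling, genes with summed counts of at least 10, 1 quasi-likelihood fit of the 9 libraries and Benjamini-Hochberg adjustment over all genes tested. Calls needed FDR below 0.05 and a fold change above 1.5. DESeq2 1.42.0 was an alternative. The p-values measure the spread between cultures of 1 line, and 3 replicates and total counts of 6013980 to 40549699 limit the precision. Positions and summed exon lengths are from GENCODE version 29, found for all 71 members, and starts from RefSeq on GRCh38.p14. The fit was also run on simulated counts with 1 spread for all genes and no outlying library. That setting is simpler than these data, and no result here rests on it. Always given were EIF2S1, the eIF2 kinases, the main cap and elongation genes and the outermost eIF3 genes, and in full up to 6 called members with the largest change per comparison and direction and a mean of at least 100 counts. The members and gene lists were chosen with earlier results of these data known. Genes just inside or outside a threshold, and other called genes, were named after their values were seen.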

Additional observations from a re-analysis of the deposited data

How the results depend on the processing

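Values below are for vehicle at 1% against 20% O2 (hypoxia), 32-134D against vehicle at 1% O2 (compound) and 32-134D against vehicle at 20% O2 (outer groups). Which members were called depended on the threshold and on scaling. With no fold change threshold, 40 members were higher and 10 lower in hypoxia, 36 lower with the compound and 17 higher between the outer groups, and of the pathway genes 23 and 9, 5 and 19, and 11 and 1 were higher and lower. Above a 2-fold change, 13 members were higher and 1 lower in hypoxia, 1 higher and 4 lower with the compound and 0 higher between the outer groups. For the pathway genes these were 5 and 0, 0 and 3, and 1 higher. Of all 22672 genes, 2449 were higher and 3286 lower in hypoxia above a 2-fold change. With the compound these were 2451 and 1189, and between the outer groups 283 and 21. With total library size, 8 members were lower in hypoxia, 7 lower with the compound and 1 higher between the outer groups. For the pathway genes, 7 were higher and 7 lower in hypoxia and 4 higher with the compound. Under this scaling 3082 of all 22672 genes were higher and 5847 lower in hypoxia. With the compound these were 4754 and 1847, and between the outer groups 617 and 152. At least 10 counts in every library left 65 members tested. Of these, 20 were higher and 6 lower in hypoxia, 4 higher and 10 lower with the compound and 1 higher between the outer groups. Of the pathway genes, 7 were higher and 6 lower in hypoxia. Of the 12912 genes that passed this filter, 2824 were higher and 3347 lower in hypoxia. With the compound these were 2677 and 1771, and 501 were higher between the outer groups. The share of members called lower with the compound was then nearer to that of all genes than with the filter on summed counts. Thinning to the smallest library gave 5 pathway genes lower in hypoxia, where 3890 of all 18165 genes tested were lower. The members' median in hypoxia was 0.13 when libraries were scaled by their totals, 0.23 under that count filter and 0.23 after thinning. With the compound it was -0.053 when total library size was used, -0.18 with DESeq2 or its size factors, -0.15 under the stricter count filter, -0.17 with only 2 groups and -0.15 after thinning. Between the outer groups it was 0.063 with total library size.

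A replicate block moved no count of members (25 and 5, 4 and 15, 3 and 0), and the median between the outer groups was 0.12. The replicate numbers are not stated to pair the samples, and same-numbered libraries had correlations of deviations from -0.0322 to 0.00525. These correlations include genes with few counts, whose deviations hold sampling noise, so they cannot decide whether cultures were paired. Leaving out 1 library at a time gave medians of 0.29 to 0.38, -0.27 to -0.15 and 0.088 to 0.16, the -0.15 without replicate 3 of vehicle at 1% O2 and the 0.16 without replicate 1 of vehicle at 20% O2. Between the outer groups 1 to 6 members were higher: 1 without replicate 2 or 3 of vehicle at 20% O2 or replicate 3 of 32-134D, 5 without replicate 1 or 2 of 32-134D, and 6 without replicate 1 of vehicle at 20% O2 or replicate 3 of vehicle at 1% O2. For the pathway genes it was 2 to 4 higher and 0 to 1 lower. With the compound 11 to 17 members were lower. The calls among all genes moved as well. Lower calls with the compound ran from 2453 of 22239 genes, without replicate 3 of vehicle at 1% O2, to 3144 of 22282, without replicate 3 of 32-134D. Higher calls between the outer groups ran from 533 of 22563, without replicate 2 of vehicle at 20% O2, to 800 of 22239, without replicate 3 of vehicle at 1% O2. Besides EIF3E, the members' calls lost with the compound in some of these fits were those of EIF2B2, EIF1AD and EEF1AKMT3. DESeq2 also lost EIF1AD, EIF2B2 and EIF3E. Counts not divided by exon length moved the change in share of EIF4A2 in hypoxia from 1.92 to 1.68 percentage points, a share that rests on the uncertain level of EIF4A1. They moved that of EIF4E2 between the outer groups to -2.74, of EIF5A2 to 1.50 and -1.28, and of EIF1 to 3.54, -1.69 and 1.85.

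Genes near 0 changed sign, none of them called under the reported settings in the comparison concerned. Under the total counts, DESeq2 size factors, DESeq2, the stricter count filter and thinning, in this order, the log2 fold changes in hypoxia were -0.18, -0.019, -0.019, -0.081 and -0.070 for EIF2AK1, -0.20, -0.034, -0.032, -0.095 and -0.083 for EIF2AK2, and -0.18, -0.011, -0.010, -0.072 and -0.061 for EIF4EBP2. With the compound they were 0.18, 0.053, 0.053, 0.088 and 0.11 for EIF2AK2 and 0.17, 0.043, 0.043, 0.080 and 0.093 for EIF4EBP2, and with only 2 groups 0.059 and 0.050. EIF2AK4 was at -0.13 with total library size and -0.029 under the stricter filter in hypoxia, and with the compound at -0.0042 with no count filter and -0.0019 after thinning. EIF2B5 was at -0.010 and 0.0098 with total library size, EIF4E3 at -0.48 after thinning between the outer groups, and EIF3CL in hypoxia at 0.028 with 2 groups, 0.027 with no filter and 0.0024 with the block. Leaving out 1 library gave -0.069 to 0.052 for EIF2AK1 in hypoxia, -0.11 to 0.080 and -0.065 to 0.11 for EIF2AK2, -0.073 to 0.15 and -0.032 to 0.070 for EIF2AK4, -0.18 to 0.068 and -0.13 to 0.22 for EIF3CL, and -0.074 to 0.069 and -0.046 to 0.071 for EIF4EBP2 in hypoxia and with the compound. It gave -0.079 to 0.44 for EIF4EBP3 with the compound, and between the outer groups -0.18 to 0.27 for EIF4E3, -0.077 to 0.13 for EIF4G3, -0.17 to 0.014 for LARP1 and -0.17 to 0.044 for SECISBP2. The cause of these changes was not tested.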
